A study of Homo sapiens with 6 samples.

Results

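The P5 ATPases ATP13A1, ATP13A2, ATP13A3, ATP13A4 and ATP13A5 were followed in K562 cells after knockdown of PCBP1. The 5 genes were taken as a family, out of 62252 genes with at least 1 quantified transcript, and they hold 59 of the 251612 transcripts that matched the annotation. They were chosen by the lower inclusion of 1 exon of ATP13A2 in the knockdown, so every ATP13A2 value below is a description. The rank of that exon and its place at the limit of the calls only describe how it was chosen. Among the members, tests were kept for ATP13A1 and ATP13A3. K562 is an erythroleukemia cell line. It was transduced with lentivirus carrying a short hairpin RNA against luciferase (shCtrl) or against PCBP1 (shPCBP1), kept under puromycin for 4 days, and collected for paired-end sequencing of poly-A RNA, with 3 libraries in each group. Each knockdown rests on a single hairpin, so an effect of PCBP1 loss and an effect of that hairpin on other RNAs cannot be told apart. The labels do not say whether the 3 libraries of a group came from separate transductions, so the p-values measure the spread between these libraries.

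P-type ATPases are membrane pumps that pass through a phosphorylated state as they move their cargo. ATP13A1, the P5A member, sits in the endoplasmic reticulum and removes membrane helices that were inserted there by mistake. ATP13A2, ATP13A3, ATP13A4 and ATP13A5 are the P5B members, and ATP13A2 and ATP13A3 work in endosomes and lysosomes. ATP13A2 exports polyamines such as spermine from the lysosome into the cytosol, and its loss causes Kufor-Rakeb syndrome, an early parkinsonism. ATP13A3 also serves polyamine uptake. PCBP1 is an RNA-binding protein that prefers runs of cytosine and that takes part in splicing, and it is an iron chaperone as well.

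The exon on which the family was chosen is exon 13 of the 29 exons of the MANE transcript of ATP13A2 (GRCh38, chr1:16996386-16996496, minus strand). It is 111 nucleotides long, a multiple of 3, and it carries part of codons 399 to 436 of 1180, so a transcript without it keeps the reading frame. Its sequence is shown because the exon defines the finding and because the intron before it is rich in C. Exon 22 of ATP13A2 (117 nucleotides, codons 805 to 843, chr1:16989887-16990003) is shown as a second exon of the gene whose estimated inclusion was lower in the knockdown. Exon 33 of ATP13A3 (90 nucleotides, codons 1162 to 1191 of 1256, chr3:194412199-194412288, minus strand) is shown as the alternative exon of the paralog. Each line runs 5′ to 3′ on the transcribed strand, with the exon in capitals between the last 50 bases of the intron before it and the first 20 bases of the intron after it.
ATP13A2 exon 13: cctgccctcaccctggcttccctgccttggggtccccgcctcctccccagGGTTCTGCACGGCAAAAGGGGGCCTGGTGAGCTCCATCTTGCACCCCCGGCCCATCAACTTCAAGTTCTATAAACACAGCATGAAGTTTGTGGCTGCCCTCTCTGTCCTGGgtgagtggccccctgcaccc
ATP13A2 exon 22: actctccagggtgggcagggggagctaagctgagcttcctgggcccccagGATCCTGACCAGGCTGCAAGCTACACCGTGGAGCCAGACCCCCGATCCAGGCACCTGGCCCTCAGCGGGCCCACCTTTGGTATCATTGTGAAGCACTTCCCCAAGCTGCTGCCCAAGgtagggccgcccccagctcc
ATP13A3 exon 33: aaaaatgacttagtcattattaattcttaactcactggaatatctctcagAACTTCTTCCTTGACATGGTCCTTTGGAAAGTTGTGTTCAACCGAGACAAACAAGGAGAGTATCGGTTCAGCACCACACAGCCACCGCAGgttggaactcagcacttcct

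In the 50 bases before ATP13A2 exon 13, 27 were C, or 54%, and the tetramer CCCC was found at 2 positions. Such a density was uncommon among exons, but it was not particular to exon 13 within its gene. Of 34153 exons with a tested skipping event in all genes, 0.726% had at least as much C in that window, the median was 22%, and 19.5% held CCCC. GGGG, the same motif read on the other strand, was held by 8.62%. The window of exon 13 itself held GGGG at 1 position, and that of exon 22 held CCCC and GGGG at 2 positions each. Across the 27 internal exons of ATP13A2 the C content ran from 22% to 54% with a median of 44%, exon 13 shared the highest value, and 23 of the 27 windows held CCCC. ATP13A1 was also C-rich, with a median of 37% over 24 internal exons and CCCC before 19 of them. ATP13A3 was not: the median over its 32 internal exons was 14%, the highest was 28%, and none held CCCC. Exon 22 of ATP13A2 had 30% C in its window and exon 33 of ATP13A3 had 18%. A match to these letters describes the sequence and does not show that PCBP1 binds there.

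**Figure D1:**
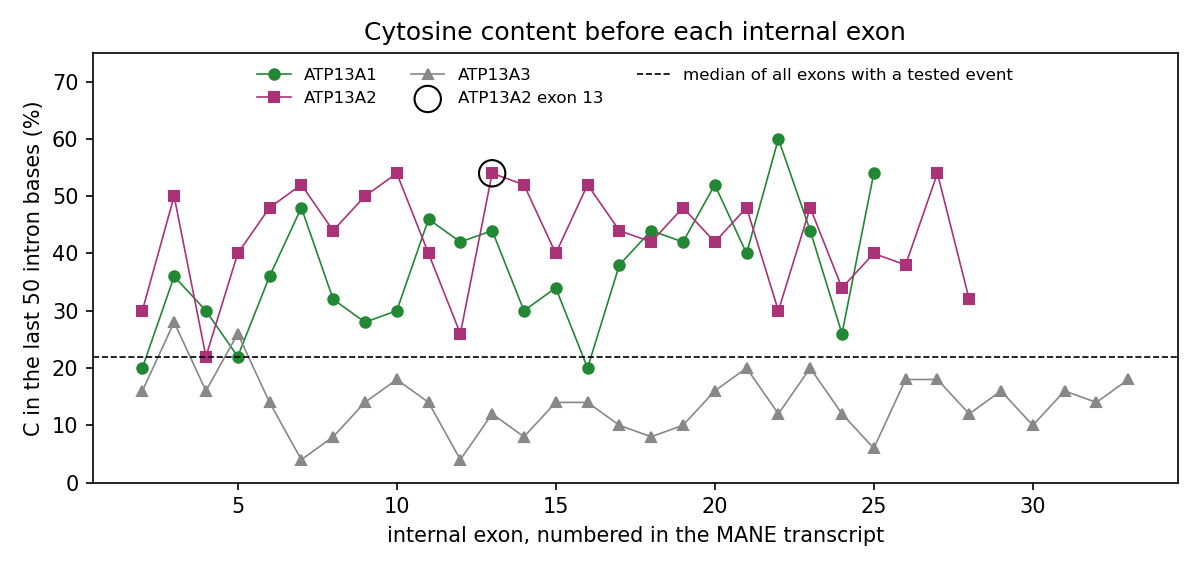
Percentage of C in the last 50 intron bases before each internal exon (y axis) of the MANE transcripts of ATP13A1, ATP13A2 and ATP13A3, by exon number (x axis); the dashed line is the median of all exons with a tested event, 22%. ATP13A2 exon 13 (circled, 54%) lies among other C-rich windows of its gene, and ATP13A3 lies between 4% and 28%.

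The libraries held between 67066747 and 140522444 estimated counts, and the shCtrl libraries were on the whole the deeper ones. PCBP1 itself was reduced in the libraries labelled shPCBP1. Its normalized counts were 40566, 38409 and 37799 in shCtrl and 6625, 7277 and 7221 in shPCBP1, or 18.1% of the shCtrl mean. All 9 K562 markers (fetal and embryonic globins, GATA1, TAL1, NFE2 and LMO2 among them) were above 1 TPM, a transcript level scaled by length and library, in every library. Of 7 markers of other cell types, 4 stayed under 1 TPM in every library (CD3E, MS4A1, ALB and CDH1), and EPCAM and COL1A1 were among those that did not. The summed level of those 7 was 46.1 to 46.4 TPM in shCtrl and 33.2 to 41.2 TPM in shPCBP1, most of it EPCAM, and its part in the results below was not tested. In bulk RNA, less RNA per cell and fewer cells of a kind cannot be told apart.

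ATP13A1, ATP13A2 and ATP13A3 were expressed in these cells and ATP13A4 and ATP13A5 were close to 0. In shCtrl, ATP13A1 stood at 44.5 TPM ± 1.78 (SD, n = 3), ATP13A3 at 37.3 ± 2.90 and ATP13A2 at 20.8 ± 0.320. In shPCBP1 the values were 48.2 ± 3.36, 46.5 ± 2.57 and 15.8 ± 0.203. Since TPM is scaled by length, these levels can be set side by side between genes. The order ATP13A1, ATP13A3, ATP13A2 held for the means of both groups, but in shPCBP1 the levels of ATP13A1 and ATP13A3 lay within each other's spread. ATP13A4 had 10, 9 and 4 estimated counts in shCtrl and 5, 1 and 2 in shPCBP1. ATP13A5 had 0, 1 and 1 in shCtrl and 3, 5 and 3 in shPCBP1. Both were at or below 0.052 TPM in every library, and DESeq2 gave neither an adjusted p, so no direction can be read at this depth.

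ATP13A2, the lysosomal polyamine exporter, was lower in shPCBP1. Its normalized counts were 4484, 4680 and 4382 in shCtrl and 3150, 3221 and 3137 in shPCBP1. All shPCBP1 libraries lay below all shCtrl libraries, and the shPCBP1 mean was 70.2% of the shCtrl mean. The log2 fold change was -0.51 (SE 0.0543), and it was -0.38 when the fit allowed for the mean length of the transcripts in use.

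ATP13A3, its endosomal paralog, rose. Its normalized counts were 17512, 17215 and 17955 in shCtrl and 22758, 22135 and 21646 in shPCBP1. The groups did not overlap. On the log2 scale the rise was 0.34 with an SE of 0.0363 (DESeq2, adjusted p = 1.39e-18). ATP13A1, the helix dislocase of the endoplasmic reticulum, gave 9892, 9687 and 10295 in shCtrl and 10326, 9800 and 10589 in shPCBP1. These groups overlapped, and the log2 difference was 0.04 with an SE of 0.0446 (DESeq2, adjusted p = 0.560). Of the 2 members tested, 1 thus passed an adjusted p of 0.05, where 31.2% of the 17095 genes with an adjusted p did so (17.7% higher and 13.5% lower).

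**Figure D2:**
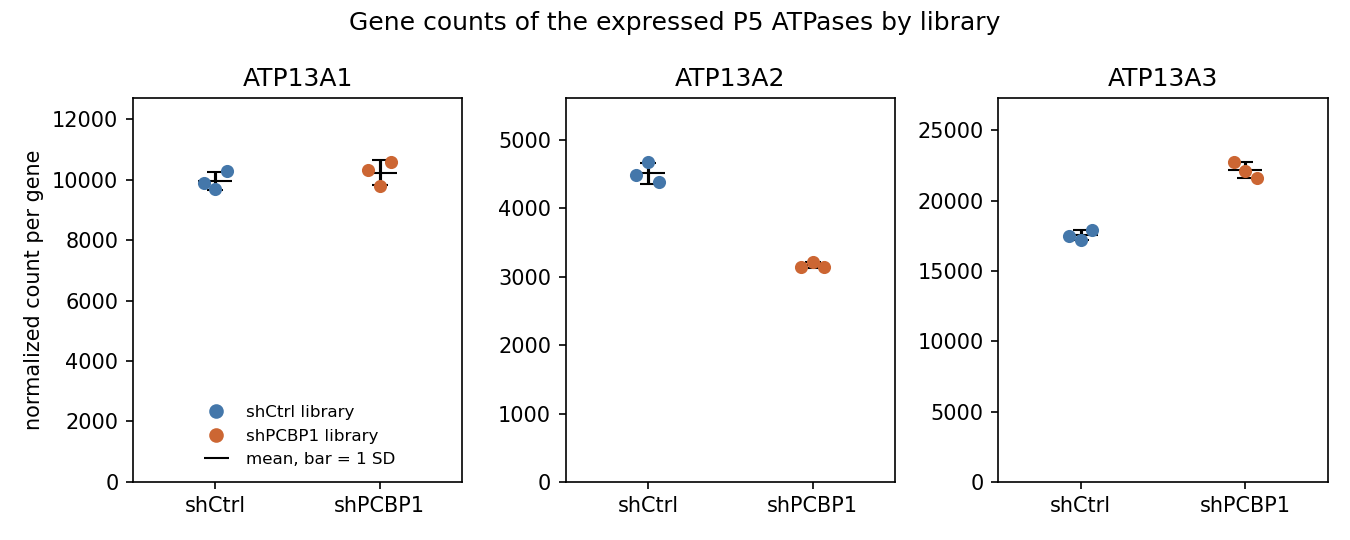
Normalized counts (y axis, from 0) of ATP13A1, ATP13A2 and ATP13A3 in the 3 shCtrl and 3 shPCBP1 libraries (points), with the mean and 1 SD (bars). The groups overlap for ATP13A1, the shPCBP1 libraries lie lower for ATP13A2 (3137 to 3221 against 4382 to 4680), and they lie higher for ATP13A3 (21646 to 22758 against 17215 to 17955).

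The skipping of ATP13A2 exon 13 was measured as percent spliced in (PSI), the TPM of transcripts that join the exon to both neighboring exons over that sum plus the TPM of transcripts that join the neighbors directly. PSI was 97.2, 98.4 and 98.4 in shCtrl and 76.5, 76.4 and 78.8 in shPCBP1. The means were 98.0 ± 0.718 and 77.2 ± 1.39 (SD, n = 3), and the groups did not overlap. Among 37773 cassette exons tested in all genes, 13 (0.0344%) passed an adjusted p of 0.05 with a change of over 5 percentage points, and this exon, which was chosen for that, was number 9 by p. It lay at the edge of that limit, since the calls nearest to it on the inner side, exons of IFT172 and BCAP29 (adjusted p = 0.0475 in limma), were tied with it, and nearest on the outer side were exons of TCF20 and DPP7 (0.0674). The exon was no longer called when any 1 library was left out, although its PSI difference then stayed between -21.5 and -20.3 points.

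The PSI rested on 1 short transcript. ATP13A2-207, annotated as a retained intron transcript of 5 exons and 687 nucleotides, is the only annotated form that joins exon 12 to exon 14, and it also runs on into the intron after exon 15. It was assigned 18, 7 and 11 estimated counts in the shCtrl libraries and 83, 88 and 63 in the shPCBP1 libraries. This gave 0.361, 0.224 and 0.205 TPM in shCtrl against 2.50, 2.86 and 2.42 TPM in shPCBP1, which took it from 1.27% ± 0.418 to 16.4% ± 1.56 of the TPM of the gene. In estimated counts, which are not divided by length, the exon's PSI difference was -3.07 points in place of -20.7 and the exon was not called. No full-length coding transcript without exon 13 is annotated, so the protein-coding transcripts alone gave no value for it. ATP13A2-204, another retained intron transcript of this stretch that does include exon 13, stood at 0.857, 0.811 and 1.03 TPM in shCtrl and at 0.250, 0.791 and 0.706 TPM in shPCBP1. It was not higher in the knockdown, unlike ATP13A2-207. How much of the signal of ATP13A2-207 came from its skipping junction and how much from its intron was not tested.

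The long coding forms of ATP13A2 were lower as well, with a change in make-up. Their summed level (ATP13A2-201, ATP13A2-202 and ATP13A2-203) was 11.5, 13.4 and 11.2 TPM in shCtrl and 7.92, 8.44 and 8.31 TPM in shPCBP1. ATP13A2-201, the MANE transcript, and ATP13A2-203 differ by a short stretch at the end of exon 5. ATP13A2-203 stood at 6.68, 5.96 and 4.78 TPM in shCtrl and at 3.04, 2.80 and 2.75 TPM in shPCBP1, without overlap. ATP13A2-201 stood at 4.79, 7.40 and 5.84 TPM in shCtrl and at 3.63, 4.24 and 4.54 TPM in shPCBP1, also without overlap. Its share of the 3 long forms was nearly level, at 49.7% ± 7.11 and 50.2% ± 4.42.

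ATP13A2-202 went the other way. It lacks exon 22 and also exon 28, which is 170 nucleotides long and is no multiple of 3, so its protein ends differently. It stood at 0.0115, 0 and 0.599 TPM in shCtrl and at 1.26, 1.39 and 1.02 TPM in shPCBP1. Every shPCBP1 library lay above every shCtrl library, though shCtrl library 3 was far above the other shCtrl libraries. Its share of the 3 long forms was 0.0998%, 0% and 5.34% in shCtrl and 15.9%, 16.5% and 12.3% in shPCBP1. It is the only annotated form that joins exon 21 directly to exon 23, and the PSI of that exon was accordingly 99.9, 100 and 95.4 in shCtrl and 86.2, 85.0 and 88.8 in shPCBP1. The difference was -11.8 points in TPM and -11.6 points in estimated counts. Exon 22 was not among the 13 called of the 37773 cassette exons tested in all genes, and the usage test did not call ATP13A2-202. The share of all tested exons whose groups did not overlap was not counted. Exon 28 is also skipped in ATP13A2-206, a shorter transcript that was lower in shPCBP1, and its PSI overlapped between the groups, at 84.6 ± 7.90 and 81.0 ± 5.83. Exon 16 (207 nucleotides, codons 515 to 583) was included at 98.8 ± 0.892 and 96.8 ± 1.90, with overlap. A form of exon 13 with a later 3′ splice site (93 nucleotides) is carried by ATP13A2-209, which had at most 4 estimated counts in a library.

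**Figure D3:**
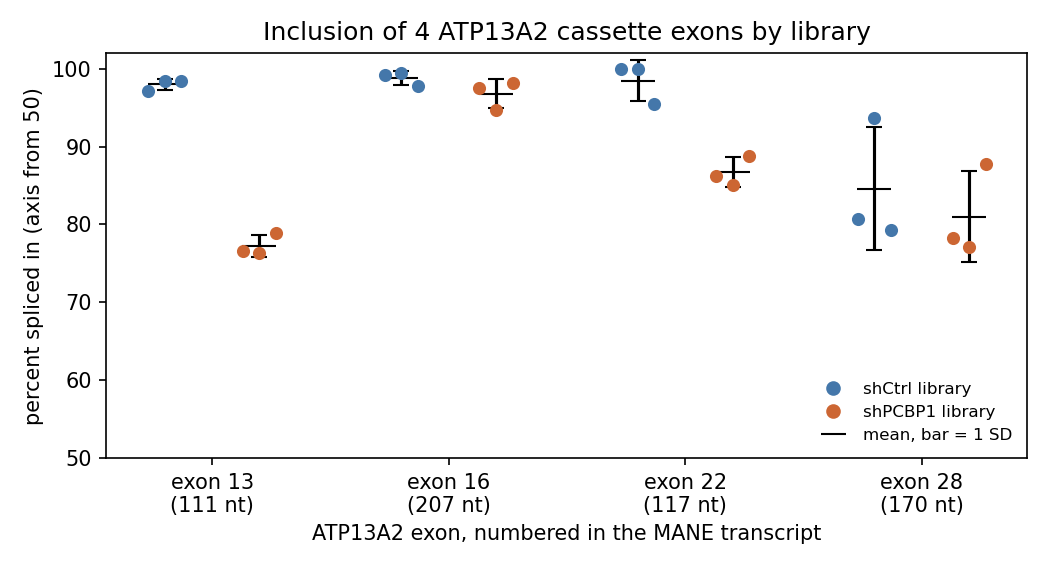
PSI in percent (y axis, which starts at 50) of 4 ATP13A2 cassette exons in each library (points), with the mean and 1 SD (bars). The groups are apart for exon 13 (76.4 to 78.8 in shPCBP1 against 97.2 to 98.4 in shCtrl) and for exon 22 (85.0 to 88.8 against 95.4 to 100), and they overlap for exons 16 and 28. The family was chosen by exon 13, and exon 22 was not called.

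By annotated class, protein-coding transcripts held 86.6% ± 2.64 of ATP13A2 TPM in shCtrl and 73.6% ± 2.17 in shPCBP1, and retained intron transcripts held the rest. This shift followed ATP13A2-207, the short transcript behind the choice of the family, which went from 1.27% to 16.4%. The other retained intron forms did not share it. ATP13A2-204 went from 4.32% to 3.68% and ATP13A2-205 from 7.81% to 6.13%, and ATP13A2-211 had at most 1 estimated count in a library. The class shares of ATP13A3 went in the opposite direction. The protein-coding share of ATP13A3 was 57.5%, 53.7% and 47.6% in shCtrl and 62.0%, 69.0% and 61.5% in shPCBP1, while its retained intron share was 46.8% ± 5.16 and 35.4% ± 3.91. These groups did not overlap, and the exact permutation test, two-sided, gave p = 0.1 for both shares, which is the smallest p that 3 against 3 allows. ATP13A1 showed no such separation, with protein-coding shares of 57.4% ± 0.480 and 54.6% ± 6.25 (exact permutation p = 0.7) and retained intron shares of 36.2% ± 4.38 and 35.1% ± 5.44 (exact permutation p = 0.9). Adjusted over these 4 tests, the p-values cannot pass 0.05.

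In ATP13A3 the long coding forms were higher as a sum in the knockdown, with ATP13A3-207 higher in every library and ATP13A3-208 overlapping between the groups. The MANE transcript ATP13A3-207 stood at 9.75, 13.2 and 6.62 TPM in shCtrl and at 19.2, 19.3 and 18.5 TPM in shPCBP1. ATP13A3-208, which lacks exon 33, stood at 9.38, 5.74 and 12.3 TPM in shCtrl and at 8.64, 10.2 and 9.72 TPM in shPCBP1. In shCtrl these transcripts, which share nearly all of their sequence, varied in opposite directions from library to library, and their sum was much steadier, at 19.0 ± 0.120 TPM against 28.5 ± 0.893 TPM in shPCBP1. ATP13A3-201, a retained intron transcript of 4819 nucleotides, was lower, at 10.1, 10.0 and 12.1 TPM in shCtrl and 6.82, 7.67 and 8.29 TPM in shPCBP1. Its share of the gene was 28.8% ± 1.01 and 16.4% ± 1.97, without overlap, but the usage test did not call it (limma, adjusted p = 0.231). No transcript of ATP13A1 or ATP13A3 was called, where 105 of 89521 transcripts (0.117%) were. At an unadjusted p under 0.05 the usage test gave 9137 transcripts over all genes.

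**Figure D4:**
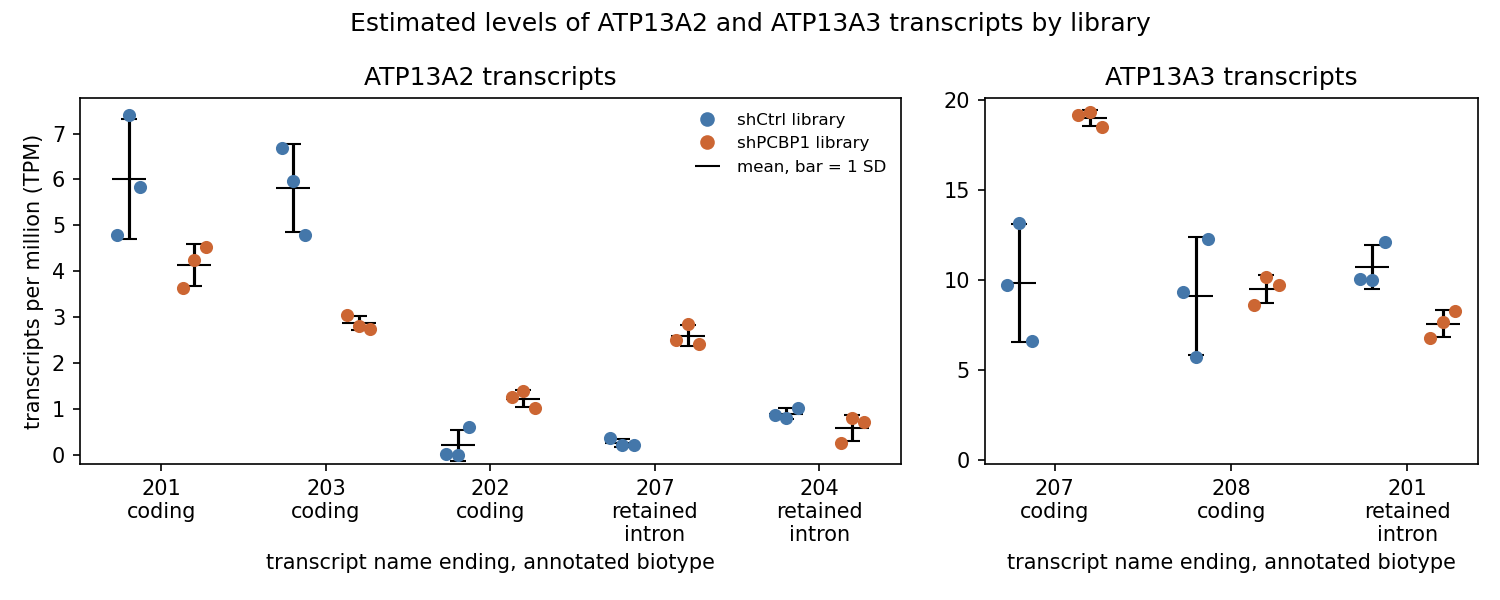
Estimated level in TPM (y axis) of 5 ATP13A2 and 3 ATP13A3 transcripts, named by the end of their transcript name, in each library (points), with the mean and 1 SD (bars). ATP13A2-202 and ATP13A2-207 are higher in shPCBP1 while ATP13A2-201 and ATP13A2-203 are lower, and ATP13A3-207 is higher while ATP13A3-201 is lower.

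None of the 4 tested cassette exons of ATP13A1 and ATP13A3 was called, where 13 of 37773 (0.0344%) were over all genes. ATP13A3 exon 33 was included at 73.0 ± 9.03 in shCtrl and 76.3 ± 0.765 in shPCBP1 (limma, adjusted p = 0.895). Exon 7 of ATP13A3, of 81 nucleotides, was included at 90.7 ± 1.26 and 93.2 ± 0.758 (limma, adjusted p = 0.534). A 31-nucleotide exon of ATP13A3 that the MANE transcript lacks was included at 2.11 and 1.49 on average. A 91-nucleotide exon of ATP13A1, also outside the MANE transcript, was included at 2.02 ± 1.75 and 0.158 ± 0.274 (limma, adjusted p = 0.612). In ATP13A1 the MANE transcript ATP13A1-202 held 53.9% ± 1.27 and 51.7% ± 3.92 of the TPM of the gene, and its level was 24.0 ± 1.37 and 24.8 ± 0.438 TPM. Of the other ATP13A1 transcripts, ATP13A1-214, a retained intron transcript, held 14.6% ± 2.41 and 10.1% ± 3.44 (limma, adjusted p = 0.569). ATP13A1-212 was at 0 in shCtrl library 2 and at 3.35 to 6.21 TPM in the other libraries.

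Genes beside the members were read as well, since the strand setting of the counting is not given in the sources used here. ATP13A3-DT, a noncoding RNA on the opposite strand that overlaps the start of ATP13A3, gave -0.15 on the log2 scale (DESeq2, adjusted p = 0.343), opposite in sign to ATP13A3. ENSG00000244675, a noncoding RNA on the same strand as ATP13A3 that overlaps it, had a mean normalized count of 15.3 and no adjusted p. Near ATP13A2, CROCC, a ciliary rootlet gene, fell (log2 fold change -0.31, SE 0.0859, DESeq2, adjusted p = 0.00188), while SDHB, a subunit of succinate dehydrogenase, gave -0.03 (DESeq2, adjusted p = 0.628). Near ATP13A1, LPAR2, a lysophosphatidic acid receptor, fell (-0.81, SE 0.130, DESeq2, adjusted p = 1.16e-08), and GMIP, a GTPase-activating protein, fell (-0.52, SE 0.0963, DESeq2, adjusted p = 8.85e-07). ZNF101 gave -0.08 (DESeq2, adjusted p = 0.450). The genes whose log2 counts followed ATP13A2 most closely over the 6 libraries, out of 14180, were MYO6, VPS51, the pseudogene SOD1P3, ORAI3 and HDAC10, with Pearson r between 0.998 and 0.999. All 5 had negative log2 fold changes, and the libraries share their group difference, so r is a description.

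Most polyamine genes that passed the test were higher. Of 27 genes listed for polyamine synthesis, breakdown and transport, 23 had an adjusted p, 9 rose and 1 fell. This was 43.5% of them, where 31.2% of all tested genes passed (17.7% higher and 13.5% lower). The median log2 fold change was 0.09 against 0.00187 over all genes. SMOX, the oxidase that turns spermine back into spermidine, rose from 1256 ± 97.0 to 1661 ± 70.1 normalized counts (log2 fold change 0.40, SE 0.0865, DESeq2, adjusted p = 3.18e-05). DOHH, which completes the hypusine residue of the translation factor EIF5A, rose by 0.37 on the log2 scale (DESeq2, adjusted p = 3.08e-07). DHPS, which starts that residue from spermidine, and EIF5A itself also rose, by 0.21 and 0.20. ODC1, the entry enzyme of polyamine synthesis, rose by 0.16 (DESeq2, adjusted p = 0.0107), SRM by 0.22 and AMD1 by 0.18. The antizyme gene OAZ1 rose as well, by 0.09 (DESeq2, adjusted p = 0.0192). SLC3A2, the heavy chain of an amino acid exchanger, rose by 0.23 (DESeq2, adjusted p = 2.59e-07). SAT1, the acetyltransferase that marks polyamines for breakdown and export, fell from 3633 ± 178 to 2910 ± 289 normalized counts (log2 fold change -0.32, SE 0.0736, DESeq2, adjusted p = 0.000117).

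Lysosomal genes moved both ways. Of 49 listed, 48 had an adjusted p, 8 rose and 14 fell, and the median log2 fold change was 0.01. The 16.7% that rose were close to the 17.7% of all tested genes, and 29.2% fell against 13.5% of all. The 8 that rose became 5 without shCtrl library 2, 4 without shPCBP1 library 1 and 3 without shPCBP1 library 2, and 3 with edgeR, while 13 or 14 fell in these fits. Several lumenal hydrolases and their helper proteins were among those that fell. GAA, the acid alpha-glucosidase, fell from 376 ± 60.0 to 214 ± 38.9 normalized counts (log2 fold change -0.82, SE 0.196, DESeq2, adjusted p = 0.000238). NAGLU (-0.56), TPP1 (-0.38), PSAP (-0.37) and NPC2 (-0.35) fell too on the log2 scale. TPCN2, a lysosomal cation channel, fell by 0.63 on the log2 scale (SE 0.0908, DESeq2, adjusted p = 1.41e-10). TFEB, a transcription factor of lysosomal genes, fell by 0.61 on the log2 scale (DESeq2, adjusted p = 0.00396; 0.0558 without shCtrl library 1), while its relative MITF rose by 0.26. LAMP1, a main protein of the lysosomal membrane, rose from 8764 ± 480 to 10701 ± 630 (log2 fold change 0.29; DESeq2, adjusted p = 7.72e-07). Of the proton pump subunits, ATP6V0A1, ATP6V0B, ATP6V0C and ATP6V1B2 rose by 0.13 to 0.18, and ATP6V1A (-0.21) and ATP6V1D (-0.37) fell.

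Among 25 genes linked to Parkinson disease or known to interact with ATP13A2, 23 had an adjusted p, 7 rose and 6 fell, with a median of -0.04. They passed at 56.5%, against 31.2% of all tested genes, but the count of 13 dropped to 8 without shPCBP1 library 1 and to 8 without shPCBP1 library 2. The 7 that rose became 4 without either of these libraries or without shCtrl library 1. PLA2G6, a phospholipase whose loss causes a parkinsonism, fell from 1203 ± 161 to 498 ± 134 normalized counts (log2 fold change -1.28, SE 0.159, DESeq2, adjusted p = 4.52e-14). NEDD4, a ubiquitin ligase, fell by 0.27 on the log2 scale (DESeq2, adjusted p = 0.000203), but the change was -0.07 (adjusted p = 0.449) once transcript lengths entered DESeq2. PINK1, the mitochondrial quality control kinase, fell by 0.27 on the log2 scale (DESeq2, adjusted p = 0.0200). That call was lost without shCtrl library 2 (0.135), shCtrl library 3 (0.0759) or shPCBP1 library 1 (0.166). HTRA2, a mitochondrial protease, rose by 0.31 (DESeq2, adjusted p = 2.01e-06). RAB32, a small GTPase of lysosome-related organelles, rose by 0.22 (DESeq2, adjusted p = 0.0356), a call lost without shCtrl library 1 (0.0988) or 3 (0.110) and without shPCBP1 library 1 (0.0981) or 2 (0.209).

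Around ATP13A1, 36 of 37 genes listed for insertion and removal of membrane proteins at the endoplasmic reticulum had an adjusted p, 11 rose and 2 fell, with a median of 0.08. The 36.1% that passed were near the 31.2% of all tested genes. By direction, 30.6% rose against 17.7% of all, and 5.56% fell against 13.5% of all. The 11 that rose became 7 without shCtrl library 2 or without shPCBP1 library 2. UBQLN2, a chaperone that carries proteins to the proteasome, rose by 0.27 (SE 0.0626, DESeq2, adjusted p = 0.000169). NCLN, a part of the translocon for multipass proteins, rose by 0.25 (SE 0.0466, DESeq2, adjusted p = 9.67e-07). HM13, the signal peptide peptidase, also rose by 0.25 (DESeq2, adjusted p = 3.74e-07), and BAG6, a chaperone of tail-anchored proteins, rose by 0.23 (DESeq2, adjusted p = 9.03e-10). GET4, the partner of BAG6, fell by 0.15 on the log2 scale (DESeq2, adjusted p = 0.00392), and so did TMEM147, a partner of NCLN, by 0.15 (DESeq2, adjusted p = 0.00739; 0.0531 without shCtrl library 1).

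Of 32 genes listed as other P-type ATPases, with the flippase subunit TMEM30A counted among them, 21 had an adjusted p, 5 rose and 5 fell, with a median of 0.01. This was 47.6% of them, against 31.2% of all tested genes. The number that rose was 3 without shPCBP1 library 1, and the number that fell was 3 without shCtrl library 2. ATP8B3, a lipid flippase, fell by 1.24 on the log2 scale (SE 0.150, DESeq2, adjusted p = 7.66e-15). ATP2A3, a calcium pump of the endoplasmic reticulum, fell from 15844 ± 1616 to 10153 ± 867 (log2 fold change -0.64; DESeq2, adjusted p = 9.00e-08). ATP9A, an endosomal flippase-like protein, rose by 0.50 (DESeq2, adjusted p = 0.000369), TMEM30A by 0.18 and ATP11B, a flippase, by 0.16. ATP13A3 had a larger rise than all of these but ATP9A, and ATP13A2 a smaller decrease than ATP8B3 and ATP2A3, but these differences between genes were not tested.

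**Figure D5:**
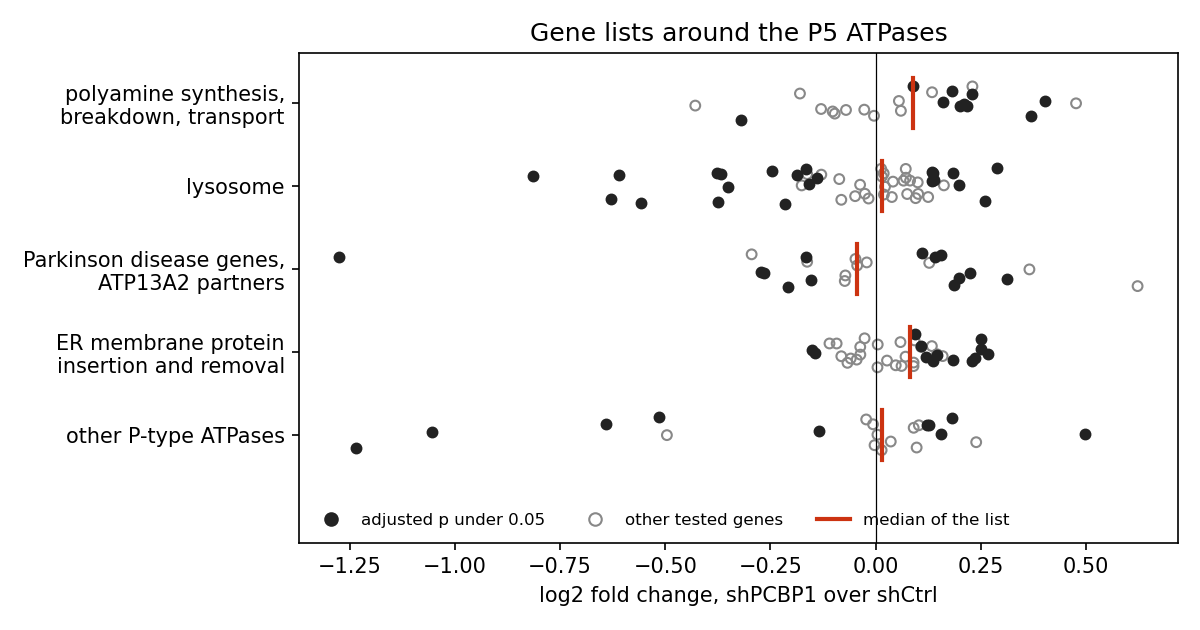
Log2 fold change of shPCBP1 over shCtrl (x axis) for each tested gene of 5 gene lists (rows); filled points passed an adjusted p of 0.05, open points did not, and the red line is the median of the list. The medians lie between -0.04 and 0.09, with 9 polyamine genes higher and 1 lower, and 8 lysosomal genes higher and 14 lower.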

How the data were processed

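Poly-A RNA of K562 cells was sequenced in 6 libraries, 3 shCtrl and 3 shPCBP1, grouped by their titles. The authors quantified reads against human transcripts with Salmon 1.10.2 (hg38 in the processing notes, which also name STAR 2.7.11b and, for DESeq2, 3.19). The annotation release of the index is not given in the sources used here. They deposited, per transcript, estimated counts, not normalized, and TPM, which are scaled by effective length and sum to 1000000 in each library. Salmon splits reads shared by transcripts by a model, so levels of overlapping forms are less certain than their sum.

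Of 252045 transcripts, 251612 were matched to GENCODE 44 (251142 with the same version), and unmatched ones held 0.136 to 0.147% of counts. Estimated counts were summed per gene, rounded, and tested with DESeq2 1.42.0 (Wald test, two-sided, group only, genes summing to 10 counts or more, R 4.3.3). A gene passed at a Benjamini-Hochberg adjusted p under 0.05. Transcript usage and cassette exons were tested with limma 3.58.1 with trend on the log2 ratio of TPM, with a pseudocount of 0.1 TPM. For usage, the transcript and the rest of its gene each had to average at least 10 estimated counts in at least 1 group. A cassette exon needed this average over all libraries for either form, so the other form could be near 0. Both were called at an adjusted p under 0.05 with over 5 percentage points. Shares of transcript classes were compared by exact permutation (scipy 1.17.1). The scripts were tested on simulated data. Libraries of a group differed by more than sampling noise (chi-square per degree of freedom 6.19 to 15.1), so each counted as 1 replicate.

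Named were the 5 members, PCBP1, up to 3 passed genes with the highest and 3 with the lowest log2 fold change of each list (mean of at least 50), neighbors within 20 kb, the 5 genes most like ATP13A2 (mean of at least 100), member transcripts with at least 5% of their gene, and tested member exons. The further list members given by value (DHPS, EIF5A, ODC1, OAZ1, SRM, AMD1, NAGLU, TPP1, PSAP, NPC2, the proton pump subunits and BAG6) were chosen after their values were seen. The members and lists were chosen with earlier results of these data known. Alternatives were edgeR 4.0.16, TMM factors, other count filters, length offsets, other pseudocounts, estimated counts in place of TPM, protein-coding transcripts only, a replicate block and each library left out. No protein sequence was used here, and some genes that met the naming rule or are counted in a list are not reported here by name.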

Additional observations from a re-analysis of the deposited data

How the results depend on the processing

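ATP13A3 stayed higher and past the threshold, and ATP13A1 stayed short of it, under all alternatives tried. ATP13A2 stayed lower, with a log2 fold change of -0.38 with length offsets and -0.53 to -0.48 with a library left out. The depth limits ATP13A4, ATP13A5 and ATP13A2-207, which had few reads.

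Gene calls (over 1 in log2 fold change, mean over 10) numbered 235 in the main analysis, 320 with edgeR, 331 with length offsets, 148 with the replicate block and 140 to 249 with a library left out. Transcript usage calls, 105 in the main analysis, numbered 185 and 191 with pseudocounts of 1 and 0.01 TPM, 188 with estimated counts, 0 with the replicate block and 78 to 108 with a library left out. Cassette exon calls, 13 in the main analysis, numbered 121 and 31 with those pseudocounts, 43 with estimated counts, 25 when both forms needed 10 counts, 8 with protein-coding transcripts only, 0 with the replicate block and 0 to 1 with a library left out. At the same time 3759 exons had an unadjusted p under 0.05. The causes were not tested. The Parkinson disease list had 13 passed genes, and 8 to 12 with a library left out. With edgeR the numbers that rose were 3 for the lysosomal list (8 in the main analysis), 4 for the Parkinson disease list (7) and 3 for the other P-type ATPases (5). They were 4 for the lysosomal list with length offsets and 4 for the Parkinson disease list with the replicate block.

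Deviations from the group means were nearly uncorrelated between libraries of the same number (0.0387, 0.0160 and -0.0331). The labels do not say whether libraries of the same number were made together. Among the genes named, the replicate block ended the call of RAB32 (DESeq2, adjusted p = 0.0976).

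The ATP13A2 exon 13 difference was -3.07 points with estimated counts. Some differences turned sign. With estimated counts and with protein-coding transcripts only, the share of ATP13A1-202 was 2.79 and 1.13 points higher in shPCBP1, that of ATP13A2-201 was 0.778 and 2.34 points higher, and that of ATP13A2-213 was 0.00850 and 0.535 points higher. With a library left out, the ATP13A1-208 difference ran from -0.117 to 1.48, that of ATP13A2-201 from -5.63 to 0.773, that of ATP13A2-213 from -2.02 to 0.0650, the PSI difference of ATP13A3 exon 33 from -0.798 to 8.14, of ATP13A2 exon 28 from -6.92 to 0.975, and of the short form of ATP13A2 exon 13 from -13.9 to 4.01.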
